A study of Mus musculus with 6 samples.

Results

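The 10 genes described here are immediate early genes outside the AP-1 family: Egr1, Egr2 and Egr3, Nr4a1, Nr4a2 and Nr4a3, Ier2, Ier3, Dusp1 and Klf6. They were taken by name, and all 10 had a row among the 22180 genes measured. Each had exactly 1 row under its own symbol and 0 rows shared with another symbol, so the choice of rows left their values as deposited. The cells were mammary basal cells, the outer epithelial layer with contractile myoepithelial cells, freshly sorted by flow cytometry from virgin female mice aged 8 to 14 weeks. Expression was measured on 6 arrays, 3 of wild type mice and 3 of mice whose labelled genotype is Trp53-/-, p16ink4a-/- and p19arf-/-, called the knockout here. The knockout thus lacks p53 and both proteins of the Cdkn2a locus, and the labels give neither a strain nor a promoter or Cre that would limit the loss to some cells. All cells of both genotypes had been released with collagenase, hyaluronidase, trypsin and dispase, depleted of most blood and endothelial cells with beads, and sorted into a solution that preserves RNA.

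Immediate early genes are switched on within minutes of a stimulus from factors already present in the cell, without new protein synthesis. Growth factor signals reach their promoters through ERK and the serum response factor with its ETS partners, which bind the CArG box and the ETS core. Signals through cyclic AMP and calcium reach them through CREB at the cyclic AMP response element, or CRE. The EGR genes encode zinc finger transcription factors, and the NR4A genes encode nuclear receptors that act without a known natural hormone. IER2 is a nuclear protein, IER3 takes part in survival signalling, DUSP1 removes phosphate from MAP kinases and so ends their signal, and KLF6 is a Kruppel-like transcription factor. In many tissues these genes are also known to be induced while cells are released by enzymes.

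The values are log2 expression values, so a difference of 1 is a doubling. Every array differed from the others in its values, the median row of an array lay at 5.22 to 5.39, and arrays correlated with r between 0.971 and 0.988 across genes. Neither targeted gene checked the labels: Trp53 was not analysed here, and for Cdkn2a, with a log2 difference of 0.07 (standard error 0.197), the position of the probes relative to the deletion was not known. Of the 9 basal markers measured, Krt14, Acta2 and Tagln read between 12.3 and 13.5 on every array. Oxtr, Trp63 and Mylk averaged lower, at 6.98, 7.70 and 7.94. The median level was 11.8 for basal, 7.77 for luminal and 6.41 for fibroblast markers. Single markers of other cell types also read high, with luminal Krt8 at 11.4 and fibroblast Dcn at 11.7. The purity of the sort was not tested. The labels call the 3 arrays of a genotype biological replicates and do not say whether arrays share a day or a batch.

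The promoters of 7 of the 10 genes were in the RefSeq table of build GRCm38.p6. Egr1, Egr3 and Ier2 were not among them. In the 250 bases before the annotated start, the CRE core (TGACG on either strand) was found in Nr4a1, Nr4a2, Nr4a3, Egr2 and Dusp1, 5 of 7 genes, against 17.8% of all 32851 promoter windows of this length. All 5 held it at least 2 times in a window, as did 3.9% of windows. A gene was counted if any of its windows matched, and Egr2 had 5 windows, whereas the percentages are of single windows. In Dusp1 a pair of overlapping cores makes up a full CRE (TGACGTCA), which 1.55% of windows held. Egr2, which has 5 annotated starts, held a CArG box before 4 of them, in 3 of which it is the same box in overlapping windows, and 1.47% of windows held a CArG box. The ETS core (CCGGAA on either strand, 12% of windows) was found before 1 start of Egr2 and in Nr4a1. The EGR site GCGGGGGCG (2.57% of windows) was found in Nr4a1. The EGR site GCGTGGGCG (0.536%) and the NR4A site AAAGGTCA (1.34%) were found in 0 of the 7 genes. Ier3 and Klf6 held none of these letters in their windows. The stretches below are those the later results refer to, each read 5′ to 3′ on the gene's strand, with matches in capitals. They are 2 neighbouring stretches of Nr4a1 (chr15:101266765-101266794 and chr15:101266795-101266824, plus strand), the whole window of Nr4a2 (chr2:57124004-57124253, minus strand), a stretch of Nr4a3 (chr4:48045080-48045109, plus strand), a stretch of Egr2 that ends 51 bases before an annotated start (chr10:67537789-67537818, plus strand), the whole window of Dusp1 (chr17:26508473-26508722, minus strand) and, as the gene whose values moved least, that of Klf6 (chr13:5861239-5861488, plus strand).
Nr4a1, first stretch: ccgggccgtgtgCGTCAgtggCGCCCCCGC
Nr4a1, second stretch: ccctctccatgCGTCAcggagcgcttaaga
Nr4a2: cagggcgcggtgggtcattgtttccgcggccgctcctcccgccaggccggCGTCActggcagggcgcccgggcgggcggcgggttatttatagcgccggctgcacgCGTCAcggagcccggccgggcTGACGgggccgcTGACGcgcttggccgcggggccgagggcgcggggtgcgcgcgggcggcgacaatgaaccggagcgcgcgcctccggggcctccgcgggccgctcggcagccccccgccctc
Nr4a3: agcgtcccatgtCGTCAcatTGACGtctcg
Egr2: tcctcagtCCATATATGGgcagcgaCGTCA
Dusp1: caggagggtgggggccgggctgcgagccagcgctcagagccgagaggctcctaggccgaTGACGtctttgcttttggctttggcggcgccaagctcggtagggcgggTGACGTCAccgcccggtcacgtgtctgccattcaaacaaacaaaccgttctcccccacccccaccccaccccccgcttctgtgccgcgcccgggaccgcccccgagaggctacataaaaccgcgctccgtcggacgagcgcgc
Klf6: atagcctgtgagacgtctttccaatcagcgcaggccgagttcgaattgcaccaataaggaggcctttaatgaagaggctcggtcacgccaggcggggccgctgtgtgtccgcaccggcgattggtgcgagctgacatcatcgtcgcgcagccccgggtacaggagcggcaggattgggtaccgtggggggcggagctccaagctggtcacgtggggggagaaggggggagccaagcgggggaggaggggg
A match is a description of these letters and does not show that a factor binds there.

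**Figure D1:**
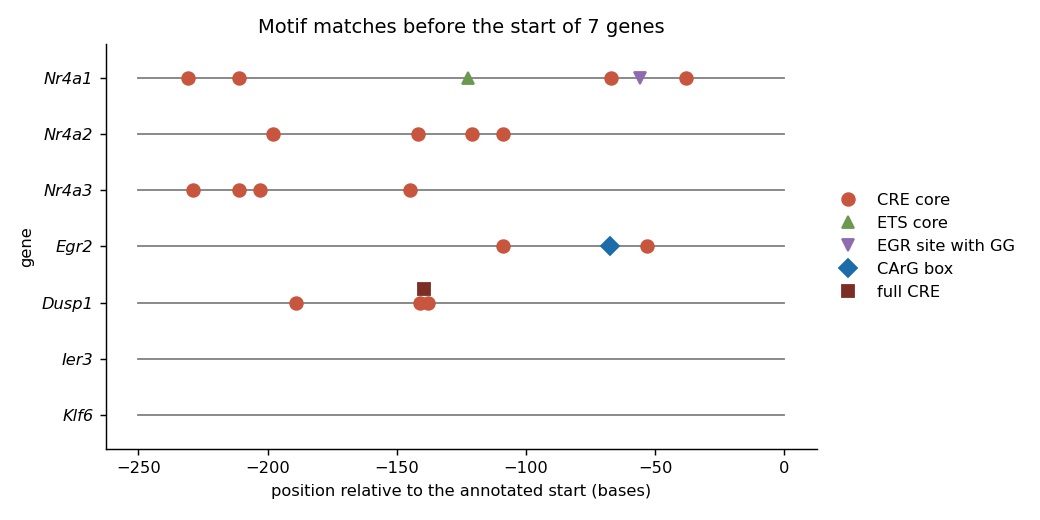
Each line is the 250 bases before the annotated start of a gene (x axis, bases relative to the start), and symbols mark the middle of motif matches on either strand. Nr4a1, Nr4a2 and Nr4a3 each carry 4 CRE cores, Egr2 (before the annotated start used for the stretch above) a CArG box between 2 cores, Dusp1 a full CRE, and Ier3 and Klf6 no match.

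The group means of 9 of the 10 genes were higher in the knockout, where 48.3% of all genes were higher. With wild type replicate 3 left out it was 6 of the 10, with knockout replicate 2 left out 5, and with wild type replicate 1 left out 8. No difference passed the test. Genotypes were compared with limma over all 22180 genes, and p-values were adjusted by the Benjamini-Hochberg method. At an adjusted p under 0.05, 0 of the 10 genes and 0% of all genes passed in either direction. At an unadjusted p under 0.05, 0 of the 10 genes and 1.61% of all genes were higher in the knockout. For 0 of the 10 genes did every knockout array exceed every wild type array, as in 3.63% of all genes, or stay below every one, as in 4.05%. The median log2 difference of the 10 was 0.33, against -0.01 for all genes. That median was 0.04 with knockout replicate 2 left out, 0.06 with wild type replicate 3 left out and 0.61 with wild type replicate 2 left out. Arrays of the same genotype lay far apart for these genes, with a median SD within a genotype of 0.50, against 0.21 for all genes. The 10 genes also read higher, at a median level of 9.04 against 5.78 for all genes. No value for all genes given here or below was matched for level.

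Among the EGR genes, Egr1 read 9.42, 10.11 and 8.81 on wild type replicates 1, 2 and 3 and 9.65, 10.42 and 9.22 on knockout replicates 1, 2 and 3. In both genotypes replicate 2 was highest and replicate 3 lowest, and the groups overlapped. The difference of the means was 0.32 (standard error 0.368, limma adjusted p = 1.0), while the values within a genotype spanned 1.29 in wild type and 1.20 in knockout cells. Without knockout replicate 2 the difference was -0.0065, which turned its sign.

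Egr2, known for its role in myelination and whose promoter stretch above holds a CArG box next to a CRE core, read 8.79, 8.81 and 7.99 in the wild type and 9.03, 9.51 and 8.36 in the knockout. Replicate 3 was again lowest in both, and knockout replicate 3 lay below wild type replicates 1 and 2. Its mean was 8.53 ± 0.467 (SD, n = 3) in wild type and 8.97 ± 0.578 in knockout cells, a log2 difference of 0.44 (standard error 0.321, 95% interval -0.29 to 1.16). Egr3, known for its role in muscle spindles, read 7.82, 8.50 and 7.61 in the wild type and 8.50, 9.06 and 7.86 in the knockout. Its difference was 0.49 (standard error 0.329, 95% interval -0.25 to 1.24), and only knockout replicate 2 exceeded every wild type array. Within each genotype all 3 EGR genes had replicate 2 highest and replicate 3 lowest.

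Of the NR4A receptors, Nr4a1 had the highest difference of the 10 genes. It read 10.48, 11.15 and 9.80 in the wild type and 11.07, 12.00 and 10.43 in the knockout. The means were 10.5 ± 0.674 (SD, n = 3) and 11.2 ± 0.791, so that knockout cells had 1.61 times the wild type signal, with a 95% interval of 0.838 to 3.10 that includes 1 (limma adjusted p = 1.0). Only knockout replicate 2 exceeded every wild type value, and knockout replicate 3 lay below wild type replicates 1 and 2. Nr4a1 also had the widest span over the 6 arrays, 2.20 log2 units.

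Nr4a2 read 9.13, 8.94 and 8.32 in the wild type and 9.71, 9.73 and 8.81 in the knockout. Here knockout replicates 1 and 2 exceeded every wild type value, and knockout replicate 3 lay among them. Its difference was 0.62 (standard error 0.295, 95% interval -0.05 to 1.29), 1.54 times the wild type signal. Nr4a2 had the interval that came nearest to leaving out 0.

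Nr4a3 did not share this pattern. It read 7.90, 8.45 and 7.90 in the wild type and 8.41, 8.30 and 7.73 in the knockout. The difference was 0.07 (standard error 0.240, 95% interval -0.48 to 0.61), and it had the sign of replicate 1 alone, since replicates 2 and 3 were lower in the knockout. It turned to -0.03 without wild type replicate 1 or 3, to -0.07 without knockout replicate 1 and to -0.0099 without knockout replicate 2. Like Nr4a1 and Nr4a2 it carries 4 CRE cores in its window. Whether Nr4a3 differs from its relatives in its response to genotype was not tested.

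Ier2 and Ier3 had small differences and nearly parallel values. Ier2 read 8.88, 9.30 and 8.46 in the wild type and 9.10, 9.45 and 8.65 in the knockout, a difference of 0.18 (standard error 0.265). Ier3 read 8.54, 8.95 and 8.09 in the wild type and 8.72, 9.0 and 8.21 in the knockout, a difference of 0.12 (standard error 0.270). In each genotype replicate 2 was highest and replicate 3 lowest for both genes, and the groups overlapped almost entirely. Without wild type replicate 3 the differences turned to -0.03 for Ier2 and -0.10 for Ier3, and without knockout replicate 2 to -0.0069 and -0.06.

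Dusp1, the phosphatase, followed another order. It read 10.29, 11.65 and 10.33 in the wild type and 10.68, 11.58 and 11.00 in the knockout. Replicate 2 stood above the others in both genotypes, wild type replicates 1 and 3 were nearly equal, and the highest array was a wild type one. The difference was 0.33 (standard error 0.364, 95% interval -0.50 to 1.15).

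Klf6 varied least of the 10 genes. It read 10.96, 10.91 and 10.96 in the wild type and 10.78, 10.99 and 10.94 in the knockout, a span of 0.21 log2 units over the 6 arrays, where the other 9 genes spanned 0.72 to 2.20. Its difference was -0.04 (standard error 0.120, 95% interval -0.31 to 0.23), and it turned to 0.02 without knockout replicate 1.

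**Figure D2:**
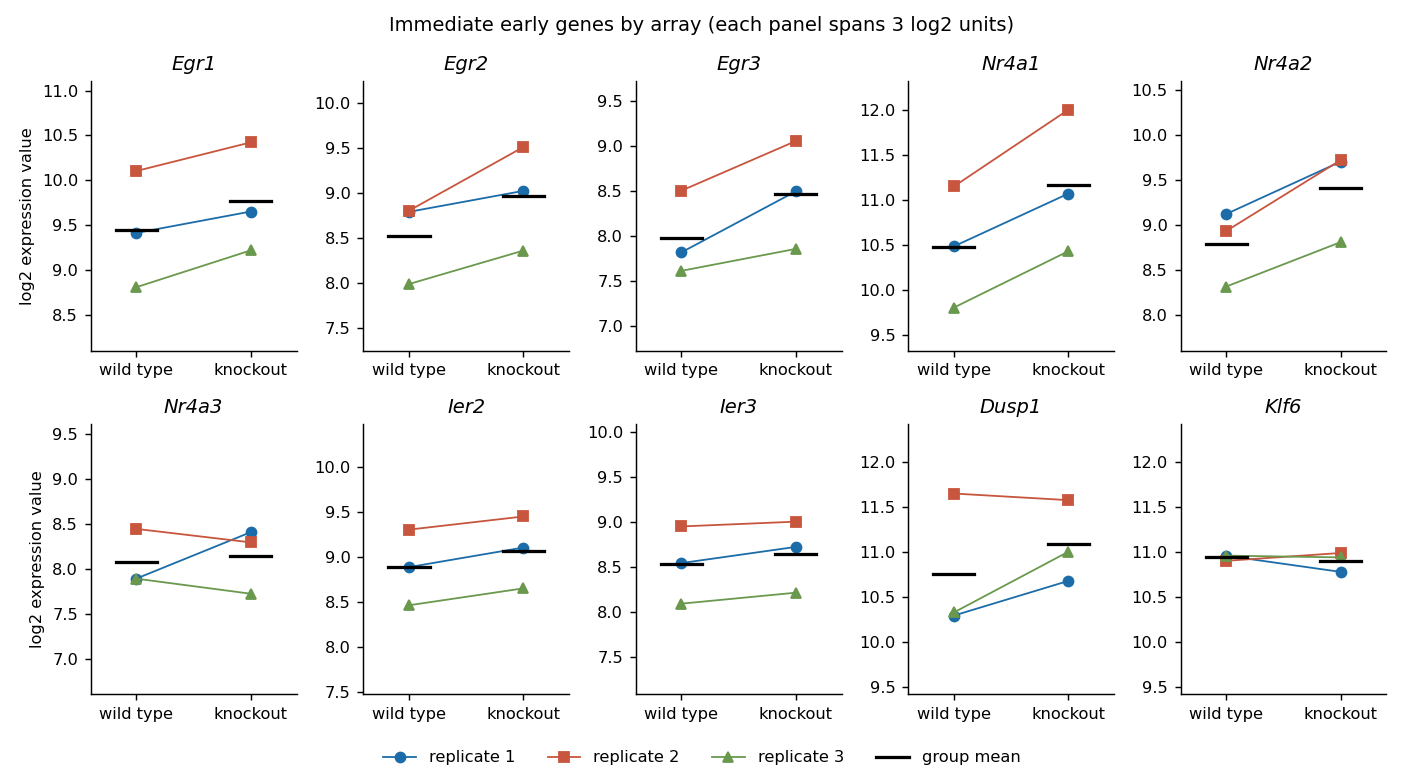
Log2 expression values of each gene (y axis, every panel spanning 3 log2 units) in wild type and knockout arrays (x axis), with lines joining arrays of the same replicate number and bars for group means (n = 3). Replicate 3 is the lowest of its genotype in both groups for 8 of the 10 genes, and the lines of Nr4a1 and Nr4a2 run upward at every number.

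Both genotypes have replicates numbered 1 to 3, and the genotype difference was also taken within each number. Over all genes, arrays that share a number tended to deviate from their group mean together (r of 0.121, 0.25 and 0.127), though wild type replicate 1 correlated as much with knockout replicate 3 (0.13), and no label says what a number shares. Within numbers, 7 of the 10 genes were higher in the knockout at all 3 numbers, as were 11.5% of all genes: Egr1, Egr2, Egr3, Nr4a1, Nr4a2, Ier2 and Ier3. No gene of the 10 was lower at all 3 numbers, as 12.3% of all genes were. These 7 genes vary together from array to array, so they are not independent observations.

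Nr4a1 differed by 0.59, 0.85 and 0.63 at replicates 1, 2 and 3, and Nr4a2 by 0.58, 0.79 and 0.49. Both genes were thus higher at every number by at least 0.49. Egr1 differed by 0.24, 0.32 and 0.41, Egr2 by 0.23, 0.71 and 0.37, and Egr3 by 0.68, 0.55 and 0.24. The differences of Ier2 were small and close to each other, at 0.22, 0.15 and 0.19, and those of Ier3 were 0.18, 0.05 and 0.12. Nr4a3 differed by 0.52, -0.15 and -0.17, Dusp1 by 0.39, -0.07 and 0.67, and Klf6 by -0.18, 0.09 and -0.02, so none of these 3 genes kept a sign.

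With replicate number as a block in the limma fit, the standard error of Nr4a1 was 0.127 in place of 0.417 and that of Nr4a2 0.154 in place of 0.295. At an unadjusted p under 0.05, 4 of the 10 genes were then higher, Egr2, Egr3, Nr4a1 and Nr4a2, against 2.38% of all genes. None passed after adjustment over all genes. The lowest limma adjusted p with the replicate block was 0.532, for Nr4a1, followed by 0.778 for Nr4a2. The smallest two-sided p that an exact permutation test allows is 0.1 for 3 arrays against 3, and 0.25 for 3 pairs.

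**Figure D3:**
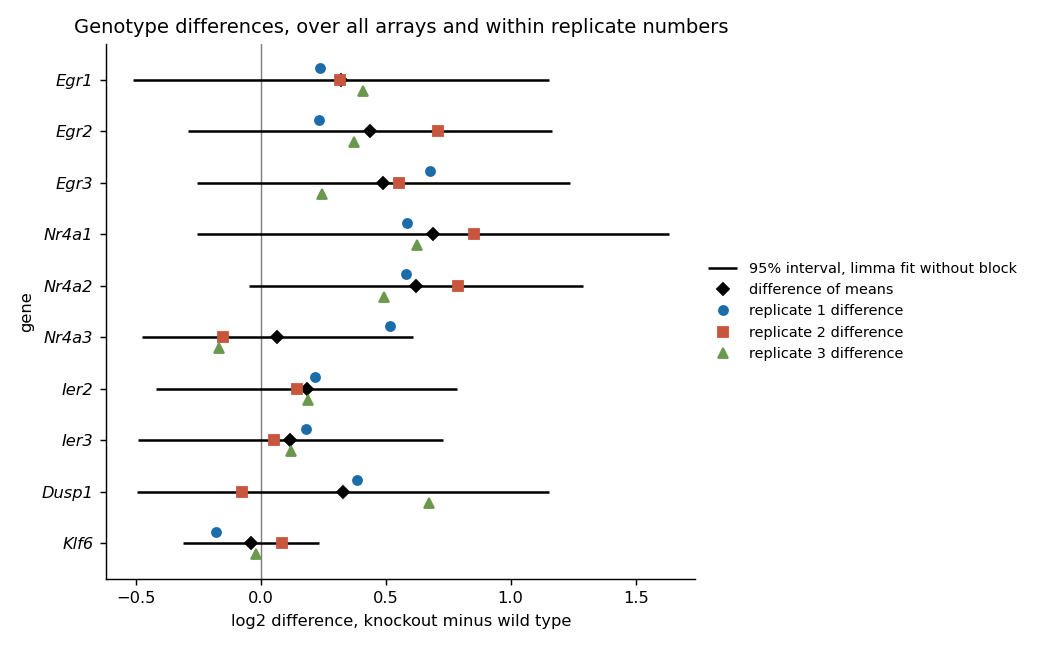
Log2 difference, knockout minus wild type (x axis), for each gene (y axis): diamonds are differences of the group means with the 95% interval of the limma fit without a block, and coloured symbols are the differences within replicates 1, 2 and 3. Every interval includes 0, and for 7 genes all 3 coloured symbols lie to the right of 0.

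Replicate number went with more of the spread of these genes than genotype did. The sum of squares of each gene over the 6 arrays was split into genotype, replicate number and a remainder. Replicate number has more levels than genotype, so it tends to take a larger share even where neither has an effect. Replicate number took 90.6% for Egr1, 92.8% for Ier2 and 96.5% for Ier3, with 0.178% to 0.567% left as remainder. For Nr4a1 the shares were 24.8% for genotype, 74.5% for number and 0.719% for the remainder, and for Nr4a2 they were 39.1%, 59.3% and 1.54%. Nr4a3 and Klf6 left more to the remainder, 31.7% and 63.3%. The median share of replicate number was 74.8% over the 10 genes and 45.1% over all genes, and the median share of genotype was 9.05% against 10.5%. A high share of replicate number was not particular to the 10 genes. It was 77.8% for heat shock genes, 77.4% for AP-1 genes and 69.4% for basal markers. For luminal markers it was 42.7% and for fibroblast markers 16.4%.

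The order behind this was replicate 2 highest and replicate 3 lowest in both genotypes, found for 6 of the 10 genes, Egr1, Egr2, Egr3, Nr4a1, Ier2 and Ier3, and for 4.46% of all genes. Replicate 3 was lowest in both genotypes for 8 of the 10 genes and 12.3% of all genes, the exceptions being Dusp1 and Klf6, and replicate 2 was highest in both for 7 of the 10 and 16.6% of all genes. Some of these orders rest on near ties. Wild type replicates 1 and 3 were nearly equal for Nr4a3, and wild type replicates 1 and 2 for Egr2. The mean of the 10 genes spanned 0.85 log2 units over the wild type arrays and 0.88 over the knockout arrays, while the genotype means differed by 0.32. A span of single arrays tends to exceed a difference of means, so these are unlike measures.

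**Figure D4:**
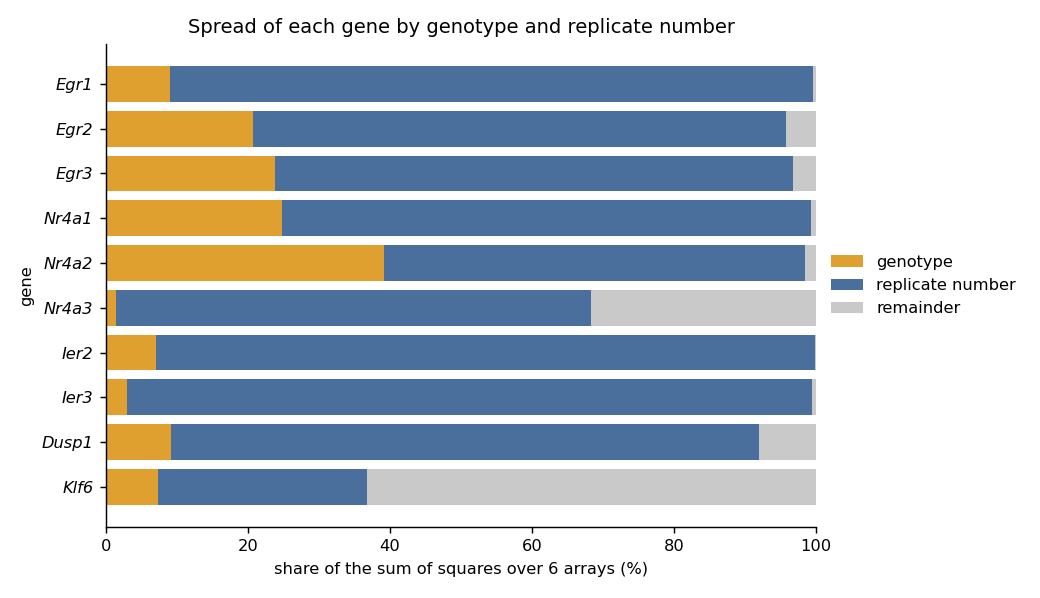
Share of each gene's sum of squares over the 6 arrays (x axis, percent) that goes with genotype, replicate number and neither. Replicate number takes the longest part of every bar but that of Klf6, and genotype takes most in Nr4a2, at 39.1%.

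The mean over the 10 genes was 9.22, 9.68 and 8.83 in the wild type and 9.57, 10.0 and 9.12 in the knockout. Same-numbered arrays thus differed by 0.34, 0.33 and 0.29, and the difference of the means was 0.32. By gene family this mean difference was 0.42 for the 3 EGR genes, 0.46 for the 3 NR4A genes and 0.15 for Ier2, Ier3, Dusp1 and Klf6. Without wild type replicate 3 the mean difference over the 10 genes was 0.12, and without knockout replicate 2 it was 0.10. It was 0.54 without wild type replicate 2 or without knockout replicate 3, and 0.52 with array weights. Leaving out both arrays of a number, a choice made after the values were seen, gave 0.31, 0.32 and 0.34, with 9 genes higher each time.

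Further immediate early genes had the same order of arrays in part. The AP-1 genes, which encode the FOS, JUN and ATF3 factors, were all 7 higher in the knockout with a median difference of 0.33, and 0 of 7 passed the limma test. The list means were 9.52, 9.98 and 9.19 in the wild type and 9.89, 10.44 and 9.31 in the knockout, with Jun at a difference of 0.52 and Fos at 0.48. Of 38 other immediate early genes 27 were higher and 11 lower, with a median of 0.21, and 0 passed. Among them Cebpd, a leucine zipper factor, had a difference of 0.66, the matricellular gene Ccn1 of 0.56, the prostaglandin synthase Ptgs2 of 0.48, and the urokinase receptor gene Plaur of -0.66. The order with replicate 2 highest and 3 lowest in both genotypes was found for 6 of the 7 AP-1 genes and 19 of the 38 others.

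Among regulators and relatives of the 10 genes, 0 passed the limma test. Of 8 measured genes of serum response factor, its cofactors and CREB, 2 were higher, Srf by 0.24 and Creb1 by 0.18, and 6 lower, with Elk4 at -0.39. The NAB corepressors of EGR factors and the RXR partners of NR4A receptors had 3 of 5 members higher. The lower ones were Rxrb, with a difference of -0.29, and Rxrg, with -0.10. Nab2, which EGR factors are known to induce, had a difference of 0.16 and read 8.19, 8.83 and 8.34 in the wild type and 8.64, 9.07 and 8.11 in the knockout. Of 9 other MAP kinase phosphatases 3 were higher and 6 lower, with Dusp10 at -0.56 and Dusp5 at 0.15. The 12 other Kruppel-like factors, 3 of them also among the 38 immediate early genes, had 8 members higher, with Klf7 at 0.47 and Klf9 at 0.35. Of 12 measured MAP kinase and cyclic AMP pathway kinases 5 were higher and 7 lower, with Map2k2 at -0.35.

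The genes whose centred values lay nearest to the mean of the 10 over the 6 arrays were Pik3r1, Synm, Csrnp1, Fosb and Pim3, out of 9571 named genes with a mean of at least 6. Their root mean square difference from it was 0.074, 0.087, 0.089, 0.095 and 0.10 log2 units in that order. Pik3r1, a regulatory subunit of phosphoinositide 3-kinase, read 10.15, 10.45 and 9.64 in the wild type and 10.28, 10.92 and 9.94 in the knockout. Csrnp1 and Fosb were also on the lists of immediate early genes above. Of the 10 genes themselves Ier2 lay nearest to the mean, at 0.076, and Klf6 farthest, at 0.40.

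Other lists were set beside these values, and their part in the result was not tested. Heat shock genes, which are also known to be induced by dissociation, had 7 of 10 members higher, with list means of 9.99, 9.73 and 9.59 in the wild type and 10.0, 9.97 and 9.72 in the knockout. They shared the low replicate 3 and not the high replicate 2. The 9 basal markers had means between 10.60 and 10.94 in wild type and between 10.52 and 10.99 in knockout cells. The basal mean thus had the order of the 10 genes in both genotypes, with replicate 2 highest and replicate 3 lowest. In the wild type this rests on a near tie, since the basal means of replicates 1 and 3 were 10.62 and 10.60. Of the single markers 3 of the 9 had replicate 2 highest and replicate 3 lowest in both genotypes, against 4.46% of all genes. Trp63, the basal transcription factor and 1 of these 3, read 7.41, 7.97 and 7.17 in the wild type and 7.87, 8.16 and 7.59 in the knockout. Krt14 read 13.29, 13.51 and 13.30 in the wild type and 13.27, 13.27 and 13.21 in the knockout. Its wild type replicates 1 and 3 were nearly equal, and its knockout replicate 3 was lowest. These examples were chosen after their values were seen.

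Of the luminal markers 10 of 11 were lower in the knockout, and the list means were 7.48, 8.76 and 8.36 in the wild type and 7.88, 8.12 and 7.50 in the knockout. Their order in wild type cells differed from that of the 10 genes, since replicate 1 was lowest. All 8 fibroblast markers had a higher mean in the knockout, and the list mean lay between 6.29 and 6.70 in wild type and between 7.02 and 7.16 in knockout cells. The groups did not overlap in this list mean, whereas those of the 10 genes did. Of the single fibroblast markers 2 of 8 had every knockout array above every wild type array, as did 3.63% of all genes. At an adjusted p under 0.05, 0 of the 8 passed the limma test. Col1a1, a defining collagen gene of fibroblasts, differed by 0.13, Dcn, a matrix proteoglycan gene, by 0.54 and Lum, the 1 marker of that list below the array median, by 1.28. Adipocyte markers had 4 of 6 members higher, with means of 5.88 to 6.0 in wild type and 6.16 to 6.23 in knockout cells, of which Fabp4 differed by 1.31 and Adipoq by -0.05. Endothelial means lay between 4.96 and 5.32 and leukocyte means between 4.70 and 5.00 over all 6 arrays, with Ptprc, the gene of the CD45 protein used in the depletion, at 3.47. Of these, 4 of 6 endothelial and 5 of 7 leukocyte markers lay below the array median. Red blood cell markers were not analysed here. In bulk samples a change in the share of a cell type and a change of RNA per cell cannot be told apart.

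**Figure D5:**
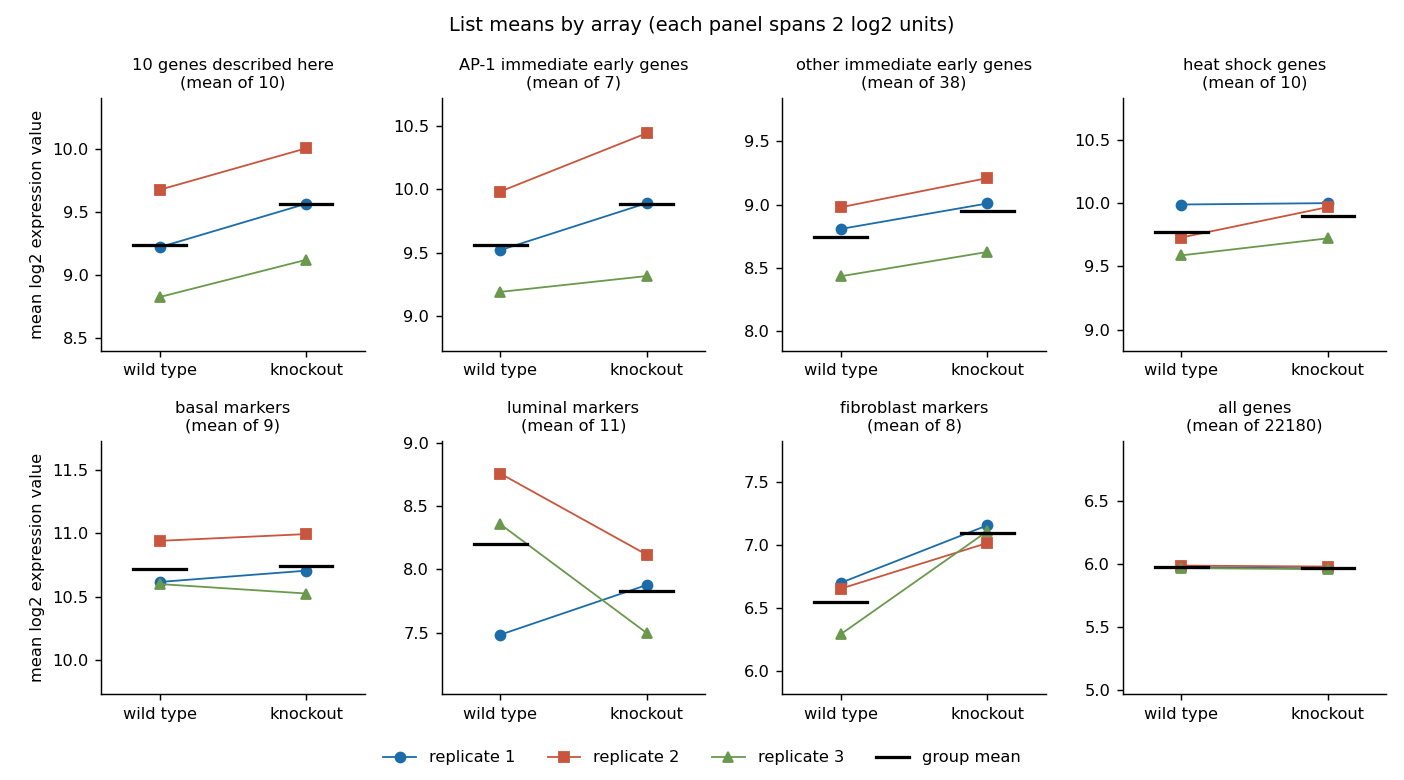
Mean log2 expression value of each gene list (y axis, every panel spanning 2 log2 units) by genotype (x axis), with lines joining arrays of the same replicate number and bars for group means (n = 3). The 10 genes, the AP-1 genes, the other immediate early genes and the basal markers show the same order in both genotypes. Replicate 2 is on top and replicate 3 at the bottom. The mean of all genes has this order too, spanning 0.02 log2 units in each genotype. Luminal markers show it in the knockout only, and heat shock and fibroblast markers in neither genotype.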

How the data were processed

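Expression was measured with whole-transcript arrays in 6 samples of sorted basal cells, 3 per genotype. The authors deposited log2 values per probe set, made with RMA (background correction, normalization between arrays and probe set summary) and Transcriptome Analysis Console 4.0, per the submitters' processing notes. Of 41345 rows, 23521 had 1 gene symbol in the platform annotation, 1814 several, and 16010 were unnamed here. Per gene the row of highest mean was kept. Scan batches are not given in the sources used here.

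The genotype test was limma 3.58.1 under R 4.3.3: lmFit, then eBayes with trend, two-sided and over all genes. The members and lists were chosen with earlier results of these data known. The 15 lists held 165 entries, of which 148 were measured. Named were all members, up to 4 genes of smallest p per pathway list, and the 5 genes nearest to the members' mean. Single cell type markers were picked after their values were seen. Same-numbered arrays correlated in their deviations (0.121, 0.25 and 0.127 across genes). Wild type replicate 1 correlated as much with knockout replicate 3 (0.13), and no label states a pairing. The fit without the block was the main one. On simulated data it recovered 3.6% of changes of 0.5 log2 units, 49.2% of changes of 1 and 88.6% of changes of 2. The changed genes were drawn from all genes, and arrays were simulated as independent. These rates are therefore not those of the 10 genes, whose median SD within a genotype was 0.50 against 0.21 for all genes. In such simulated data differences as small as those of the 10 genes would mostly be missed, and a count of 0 does not show that a gene is unchanged. Alternatives concerned the block, array weights, the prior, a second normalization, median centring, a minimum mean of 5, other row choices and arrays left out. The number of arrays limits precision. Figures were drawn with matplotlib 3.10.9.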

Additional observations from a re-analysis of the deposited data

How the results depend on the processing

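Under all 18 alternatives, 3 of them (both arrays of a number left out) chosen after seeing the data, 0 of the 10 genes and 0 genes in all passed the limma test at 0.05. At a looser adjusted threshold of 0.1 the fit as reported also gave 0 genes, and 1 gene, none of the 10, passed it without knockout replicate 1 (lowest limma adjusted p = 0.0749). At an unadjusted p under 0.05 the fit as reported had 357 higher and 379 lower genes over the whole table, the fit with the replicate block (paired by number) 527 and 585, and that with array weights 926 and 1044. The mean difference of the 10 genes lay between 0.10 and 0.54 over all alternatives, and the lowest and highest values came from leaving out 1 array, which also breaks a possible pair. The block, the prior, the minimum mean and the other row choices left the difference of each of the 10 genes unchanged. Agreement in sign was fixed in advance there. With those alternatives counted, the log2 difference of a gene kept its sign in 168 of 180 comparisons. The other 12 concerned arrays left out: Egr1 (from -0.0065 to 0.65 without single arrays), Ier2 (from -0.027 to 0.39), Ier3 (from -0.10 to 0.33), Klf6 (from -0.10 to 0.034, the ends being values without both arrays of replicate 2 and of replicate 1) and Nr4a3 (from -0.16 without both arrays of replicate 1 to 0.28 without knockout replicate 3). The signs of Egr2, Egr3, Nr4a1, Nr4a2 and Dusp1 held under every alternative run, with ranges of 0.16 to 0.74, 0.20 to 0.80, 0.27 to 1.06, 0.38 to 0.92 and 0.08 to 0.78.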
